A study of Mus musculus with 19 samples.

Results

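The genes described here are 7 genes of cellular zinc handling in mouse liver tumours: the metallothioneins Mt1 and Mt2, the zinc-sensing transcription factor Mtf1, the exporters Slc30a1 and Slc30a10, and the importers Slc39a4 and Slc39a14. They were chosen by symbol, with their levels and spread in these tumours already known, from 39179 genes in a table of read counts, and all 7 were found in it. Their levels are therefore given as a description, with no test other than a check for an extreme tumour. Of the 7 genes, 6 passed a filter on low counts that left 12462 genes, and Slc30a10 did not. A filter of this kind keeps a gene through the tumours where it is high, so its passing is no result. On GRCm38 (RefSeq positions), Mt2 (ENSMUSG00000031762) lies at chr8:94172618-94173567 and Mt1 (ENSMUSG00000031765) beside it at chr8:94178883-94180327. Mtf1 (ENSMUSG00000028890) lies at chr4:124802549-124849800, Slc30a1 (ENSMUSG00000037434) at chr1:191906697-191913248 and Slc30a10 (ENSMUSG00000026614) at chr1:185454848-185468762. Slc39a4 (ENSMUSG00000063354) lies at chr15:76612383-76618506 and Slc39a14 (ENSMUSG00000022094) at chr14:70303467-70351452.

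Polyadenylated RNA was sequenced from liver of male mice that carried 1 Cre-activated beta-catenin allele (Ctnnb1tm1Mmt, HET) and Cre-activated human MYC on both copies of Rosa26 (Gt(ROSA)26Sortm1(MYC)Djmy, HOM). All mice received AAV8.TBG.PI.Cre.rBG, a virus that carries Cre under the hepatocyte promoter TBG. Recombination was therefore aimed at hepatocytes, while the other cells of a tumour keep unrecombined alleles. Per the study, the dose of 640000000 genome copies per mouse was set so that few, solitary hepatocytes were hit. Of the 19 listed samples, 13 were tumours and 3 were non-tumour control livers, both from mice given 640000000 genome copies per mouse, and 3 were high-dose control livers, given 200000000000 genome copies. Only tumours 4 to 13 had a column whose number matched a single sample, and these 10 libraries, with 11687034 to 36964427 counts in genes, were used. No ages are given in the labels. A comparison with liver outside the tumours was not analysed here, and every value below is a difference between tumours.

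The 10 columns carry 5 tags, which the labels do not explain: RMH4_5b (tumour 4), RMH4_5c (tumours 5 and 6), RMH18_1d (tumours 7 and 8), RMH35_1b (tumours 9 and 10) and RMH35_1c (tumours 11, 12 and 13). Tumours that share a tag may share an animal, so the 10 tumours may not be independent and p-values across them may be too small. Hepatocyte markers were high in every tumour (summed level of 9 genes 26316 to 41899 counts per 1000000 counts, CPM), as were beta-catenin targets (14 genes, 21218 to 41765 CPM). Libraries differed in other RNA: 4 non-polyadenylated RNAs summed to 5.66 to 6.50 on a log2 CPM scale in tumours 5, 6 and 7 and to 1.59 to 3.14 in the others, and blood genes (5 genes) ranged from 101 CPM in tumour 13 to 6181 CPM in tumour 7.

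Metallothioneins are small cysteine-rich proteins that hold zinc, copper and cadmium, and the liver is among their main sites of production. When free zinc rises, MTF1 enters the nucleus and binds metal response elements (MREs) in the promoters of the metallothionein genes and of Slc30a1, so that zinc is stored or pumped out. Glucocorticoids, inflammatory cytokines, low oxygen and fasting are also known to raise metallothionein RNA in hepatocytes, and inflammation raises Slc39a14, through which the liver takes up zinc, iron and manganese.

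The promoters are shown because the MRE is the sequence that ties the exporter Slc30a1 to the metallothioneins. RefSeq windows on GRCm38.p6, from 250 bases before to 50 after 1 annotated start per gene, were found for 5 of the 7 genes. The 250 bases before the start are printed 5′ to 3′ on the plus strand, which is the strand of each gene, with matches to the MRE core in capitals. For Mt1 and Slc30a1 the start used lies inside the gene span given above, so that their windows overlap it. The core was searched as TGCACNC or TGCGCNC on both strands. The windows are chr8:94178839-94179088 for Mt1, chr8:94172368-94172617 for Mt2, chr1:191906531-191906780 for Slc30a1 and chr1:185454598-185454847 for Slc30a10.
Mt1: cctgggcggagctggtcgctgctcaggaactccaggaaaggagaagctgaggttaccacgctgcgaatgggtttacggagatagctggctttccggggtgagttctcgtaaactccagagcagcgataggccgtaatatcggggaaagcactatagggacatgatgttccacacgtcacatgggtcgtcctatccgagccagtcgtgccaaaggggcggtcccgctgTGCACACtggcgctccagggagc
Mt2: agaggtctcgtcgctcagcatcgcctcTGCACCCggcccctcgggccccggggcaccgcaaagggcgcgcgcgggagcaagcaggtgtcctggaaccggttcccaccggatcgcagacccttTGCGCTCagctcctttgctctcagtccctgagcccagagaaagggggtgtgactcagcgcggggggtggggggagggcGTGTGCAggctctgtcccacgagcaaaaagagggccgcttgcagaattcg
Slc30a1: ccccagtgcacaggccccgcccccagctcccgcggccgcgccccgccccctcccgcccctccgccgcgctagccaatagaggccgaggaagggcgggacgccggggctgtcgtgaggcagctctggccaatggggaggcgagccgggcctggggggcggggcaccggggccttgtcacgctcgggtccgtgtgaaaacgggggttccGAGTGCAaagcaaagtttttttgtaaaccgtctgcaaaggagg
Slc30a10: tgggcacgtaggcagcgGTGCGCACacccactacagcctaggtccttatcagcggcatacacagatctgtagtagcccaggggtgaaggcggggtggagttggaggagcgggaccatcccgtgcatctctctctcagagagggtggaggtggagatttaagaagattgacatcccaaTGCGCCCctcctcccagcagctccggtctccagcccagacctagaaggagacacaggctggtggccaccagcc

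With the 50 bases after the start included, Mt2 held 4 matches, Mt1 3, Slc30a10 3 and Slc30a1 2, and Mtf1 held none. At least 1 match was present in 25.7% of the 32851 windows of this length, at least 2 in 7.11%, at least 3 in 1.97% and at least 4 in 0.517%. Of the 3 matches of Mt1, 2 lay in the first 30 bases after the annotated start (chr8:94179089-94179118), which are printed for that reason. The count of matches per gene, and whether they lie before or after the start, depend on the 1 annotated start used. Other starts were not compared. The 3 matches of Slc30a10 include 2 that overlap on opposite strands.
Mt1 after the start: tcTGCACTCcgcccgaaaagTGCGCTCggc

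The other motifs were searched in the same 5 windows on both strands. The antioxidant response element TGACNNNGC was present once in Mt2 and once in Slc30a1 (12.4% of all windows held it). The hypoxia response core ACGTG or GCGTG had 2 matches in Mt1, 2 in Mt2 and 1 each in Slc30a1 and Slc30a10 (43.8% of all windows held at least 1). The STAT pair TTCNNNGAA and the ATF4 element TGATGNAA were found in none of the 5 windows (8.3% and 3.97% of all windows held them). A hypoxia core in Mt2 overlaps an MRE match, and the core in Slc30a1 overlaps the antioxidant element. A match is a string of letters and not a shown binding site.

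Mt1 and Mt2 were the metallothioneins these tumours expressed, and their levels lay far apart between tumours. Mt2 ranged from 6.95 CPM in tumour 13 through a median of 108 CPM to 1177 CPM in tumour 5, from 144 to 18447 counts. Mt1 ranged from 19.6 CPM in tumour 13 through a median of 194 CPM to 2058 CPM in tumour 5, from 333 to 32264 counts. Tumours 5, 6 and 10 were the highest for both genes, and tumours 11 and 13 were the lowest. From the lowest tumour to the highest this was a 169-fold span for Mt2 and a 105-fold span for Mt1. On the log2 CPM scale the SDs between tumours were 2.46 and 2.31, ranks 10 and 14 of 12462 genes ordered by SD.

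Both genes kept nearly the same order of tumours. Mt2 stood at 0.541 ± 0.109 (SD, n = 10) of the CPM of Mt1, and this ratio ranged from 0.355 in tumour 13 to 0.683 in tumour 9, a 1.93-fold span beside a 122-fold span of their sum. Pearson's r between the log2 CPM of Mt1 and Mt2 was 0.994 over the 10 tumours (Spearman's rho 0.988), 0.992 over the 8 tumours left after taking out the 2 most extreme for Mt1, and 0.994 on deviations from the means of the 3 tag families. These points share libraries, and the 2 genes are near neighbours of like sequence whose shared reads could be lost as non-unique or assigned to either gene. Per length of the canonical transcript, Mt1 averaged 649 ± 896 CPM per kilobase and Mt2 364 ± 495 (SD, n = 10). In bulk tissue, a lower share of expressing cells and less RNA per cell cannot be told apart.

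**Figure D1:**
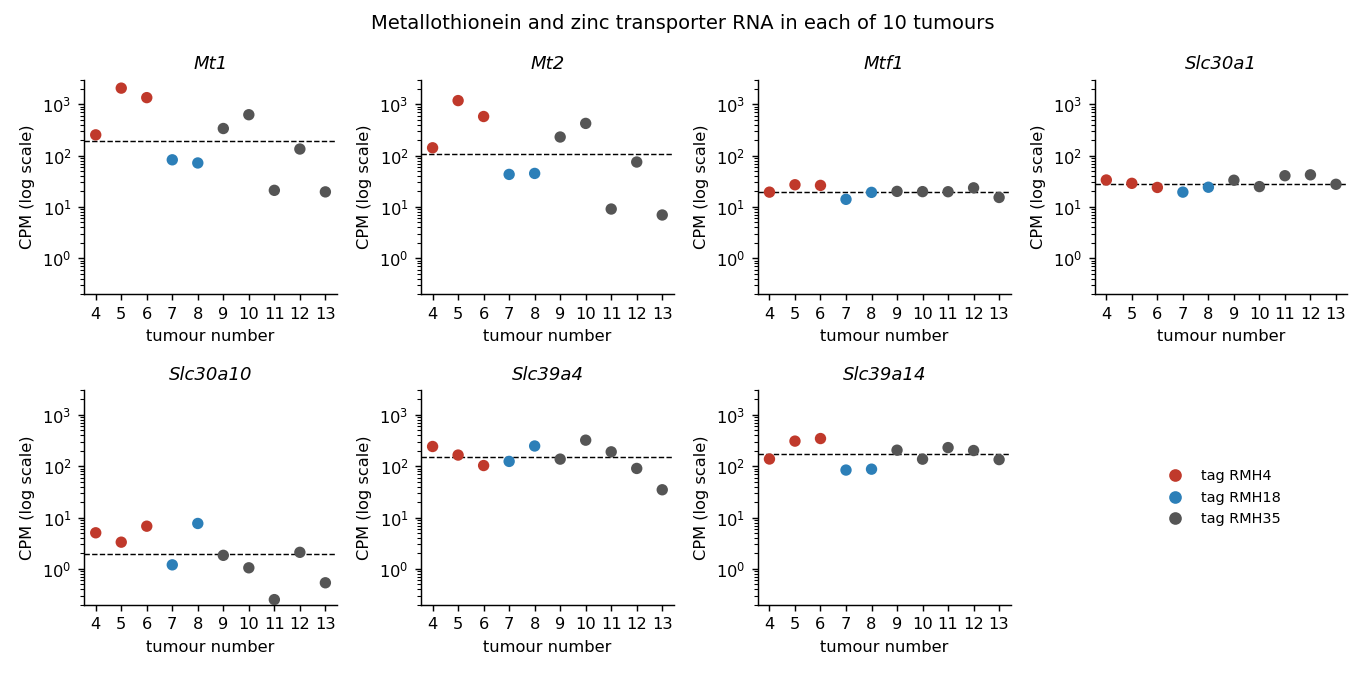
CPM (log scale) of each of the 7 genes in tumours 4 to 13; each point is 1 library, the colour is the first part of its column tag and the dashed line is the median of the 10 tumours. Mt1 and Mt2 span over 100-fold with tumours 5 and 6 at the top and 11 and 13 at the bottom, Slc30a10 spans 30.4-fold at low counts, and Mtf1 and Slc30a1 stay within 1.92-fold and 2.17-fold.

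Tumours that shared a tag lay closer for the metallothioneins than tumours that did not. Over 6 pairs with the same tag, the median difference of Mt2 was 1.94-fold, and over the 39 other pairs it was 6.38-fold. For Mt1 these medians were 1.69-fold and 6.12-fold. Tumours 7 and 8 differed 1.05-fold in Mt2 and tumours 11 and 13 differed 1.31-fold. Tumour 12 was the exception, since its Mt2 stood 8.24-fold above tumour 11 and 10.8-fold above tumour 13 under the same tag. Same-tag pairs were also closer for Slc39a14 (1.31-fold and 1.67-fold), Slc30a10 (2.64-fold and 3.13-fold) and, by little, Mtf1 (1.24-fold and 1.31-fold). They were not closer for Slc30a1 (1.29-fold and 1.28-fold) or for Slc39a4 (2.22-fold and 1.76-fold).

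The other 2 metallothionein genes of the locus were almost silent. Mt3, known mainly from the brain, reached at most 50 counts (2.39 CPM, tumour 10), and Mt4, known from squamous epithelium, at most 11 counts (0.526 CPM), and both were at 0 in at least 1 tumour. A count of 0 allows up to 3 counts, or 0.0812 to 0.257 CPM over these libraries, which covers counting error only. Of the genes within 200 kb of Mt1 and Mt2 on chromosome 8, 4 that passed the filter are described, with spans of 1.65-fold to 2.85-fold between tumours. Nup93, a nuclear pore protein, ranged from 7.69 to 15.3 CPM. Bbs2, a subunit of the ciliary BBSome, had the widest span of the 4, 2.22 to 6.32 CPM, and Nudt21 and Ogfod1 spanned 1.96-fold and 1.65-fold. None of these 4 neighbours passed the test against Mt2 described next (adjusted p 0.336 to 0.889, edgeR's quasi-likelihood test with Benjamini-Hochberg adjustment).

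To ask which other RNAs followed the metallothioneins, the counts of each of 12461 genes were fitted on the log2 CPM of Mt2 over the 10 tumours (edgeR's quasi-likelihood test, Benjamini-Hochberg adjustment over all genes). The slope is the log2 change of a gene per log2 unit of Mt2, and an adjusted p under 0.05 was a call. Of the 12461 genes, 12 were called (0.0963%), 11 with a positive slope (0.0883%) and 1 with a negative slope (0.00803%). Mt1 was the strongest, with a slope of 0.936 ± 0.0417 (SE) and an adjusted p of 4.32e-07, and it was the 1 gene called in every one of the 18 alternative fits. The 7 genes were chosen with their levels known, so p-values between members are given as a description and support no conclusion. The other 11 called genes had adjusted p from 0.0272 to 0.0411 and changed less per unit of Mt2, with slopes of at most 0.626. Chac1, a glutathione-degrading enzyme of the ATF4 response, had a slope of 0.536 ± 0.0696 and ranged from 1.14 CPM in tumour 11 to 37.3 CPM in tumour 5. Derl3, which draws misfolded proteins out of the endoplasmic reticulum, had a slope of 0.626 ± 0.0905 and ranged from 3.85 to 76.2 CPM. Slc2a1, the glucose transporter GLUT1, had a slope of 0.601 ± 0.0939 and ranged from 10.6 to 334 CPM. Bnip3, a mitophagy receptor raised by low oxygen, had a slope of 0.394 ± 0.0584 and ranged from 27.2 to 313 CPM. The remaining genes with a positive slope were Map3k6, Nucb2, Tle3, Cpne8, Ak4 and Prr15, and Ppp1r9a had the negative one (-0.204 ± 0.0321, 6.70 CPM in tumour 5 to 19.99 CPM in tumour 11).

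These calls depended on single tumours and on the model. Without tumour 4, 6 genes were called, without tumour 5, 6, 7 or 11 only Mt1 was, without tumour 8, 2 were and without tumour 13, 5, while 120 were called without tumour 10 and 25 without tumour 12. With the tag family as a term, or with the non-polyadenylated RNA as a term, only Mt1 was called, and DESeq2 called 503 genes. At an unadjusted p under 0.05, 2091 genes (16.8%) moved with Mt2, 1194 up (9.58%) and 897 down (7.2%), and without tumour 5 these were 538 and 477.

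No gene of metal handling other than Mt1 was called against Mt2. Of 42 other metal genes tested (the sensor, zinc transporters of both families, and genes of iron and copper), none was called by edgeR, 11 had an unadjusted p under 0.05 and DESeq2 called 2, Slc39a5 and Slc39a8. Of all genes 16.8% had an unadjusted p under 0.05 and DESeq2 called 4.04%. The 11 were 5 without tumour 5, 7 without tumour 6 and 2 with the tag family as a term. Over all genes the count fell too, from 2091 of 12461 to 1015 of 12633, 1661 of 12492 and 687 of 12461 in these settings. The lowest adjusted p was 0.161, for Tfr2, the hepatocyte transferrin receptor that senses iron. Mtf1 itself had a slope of 0.0833 ± 0.033 on Mt2 (unadjusted p = 0.0272 and adjusted p = 0.237 by edgeR's quasi-likelihood test). Its level ran from 14.03 CPM in tumour 7 through a median of 19.8 to 27.0 CPM in tumour 5, a 1.92-fold span, beside the 105-fold and 169-fold spans of the metallothioneins. Tumours 5 and 6 were the highest for Mtf1 as for Mt1 and Mt2. Pearson's r of Mtf1 with Mt2 was 0.696 (rho 0.806, n = 10) and 0.446 over the 8 tumours left after taking out 5 and 13, the most extreme for Mt2.

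Slc30a1 encodes ZnT1, the exporter of zinc across the plasma membrane and, beside the metallothioneins, the best known MRE-driven gene. It ranged from 19.4 CPM in tumour 7 through a median of 28.2 to 42.1 CPM in tumour 12. The order of tumours was another one than for Mt2: tumours 12 and 11 were the highest, and tumour 5, the highest for Mt2, stood at 28.8 CPM. Its slope on Mt2 was -0.0332 ± 0.0462 (adjusted p = 0.756, edgeR's quasi-likelihood test). Pearson's r with Mt2 was -0.186 (rho -0.0909, n = 10), and it lay between -0.351 and 0.0614 when each tumour was left out. With Mtf1, Pearson's r was 0.351 (rho 0.309), and 0.0137 to 0.555 when each tumour was left out.

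**Figure D2:**
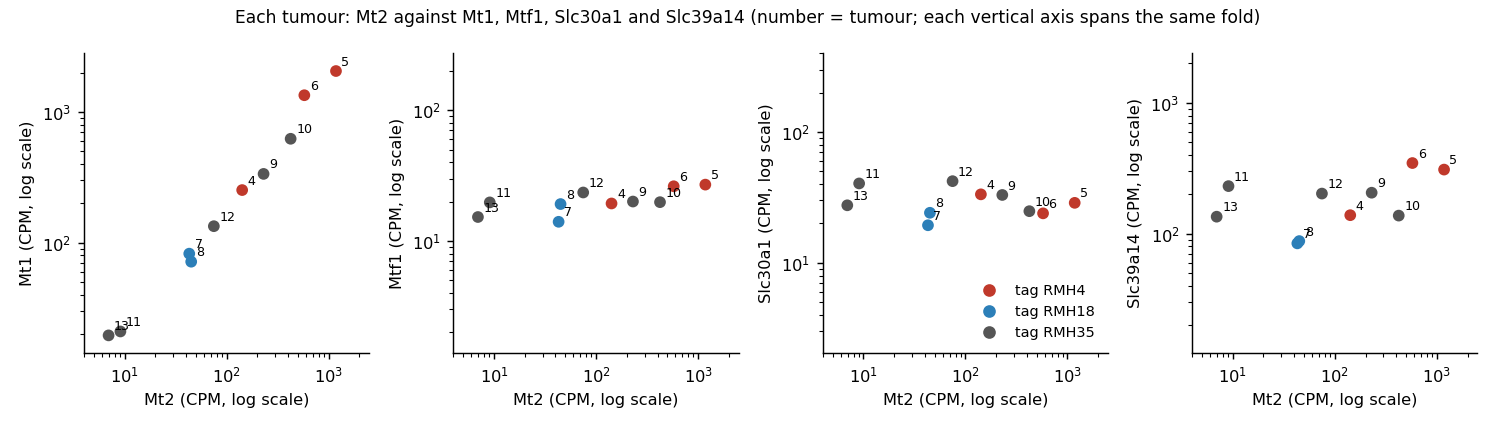
CPM of Mt2 (horizontal, log scale) against CPM of Mt1, Mtf1, Slc30a1 and Slc39a14 (vertical, log scale, the same fold in each panel) in 10 tumours; each point is 1 library with its tumour number, coloured by the first part of its column tag. Mt1 follows Mt2 with r = 0.994, while Slc30a1 (r = -0.186) stays between 19.4 and 42.1 CPM over the whole range of Mt2.

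Slc30a10, the manganese exporter of hepatocytes, was the lowest of the 7 genes. It ranged from 0.252 CPM in tumour 11 (4 counts) through a median of 1.97 to 7.68 CPM in tumour 8 (159 counts). All 3 tumours of the tag family RMH4 stood at 3.32 to 6.80 CPM and all 5 of RMH35 at 0.252 to 2.10 CPM, while tumours 7 and 8 of RMH18 stood at 1.20 and 7.68 CPM. Pearson's r with Mt2 was 0.602 (rho 0.503, n = 10). It was under the filter, and in a fit on every gene with at least 1 count its slope on Mt2 was 0.305 ± 0.191 (adjusted p = 0.548, edgeR's quasi-likelihood test).

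Slc39a4 encodes ZIP4, the importer that takes up zinc from food in the gut. It was the highest importer per length, at 60.1 ± 31.2 CPM per kilobase (SD, n = 10), and ranged from 34.8 CPM in tumour 13 through a median of 151 to 322 CPM in tumour 10. The next lowest tumour, 12, was at 90.7 CPM. Tumours 8 and 4 followed tumour 10 at 248 and 243 CPM. Its slope on Mt2 was 0.107 ± 0.106 (adjusted p = 0.653, edgeR's quasi-likelihood test). Pearson's r with Mt2 was 0.405 (rho 0.248) and -0.0302 without tumours 5 and 13.

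Slc39a14 encodes ZIP14, which hepatocytes use for zinc, manganese and iron that is not bound to transferrin. It ranged from 84.3 CPM in tumour 7 through a median of 170 to 347 CPM in tumour 6. Tumours 6 and 5 (309 CPM) were the highest and tumours 7 and 8 (87.8 CPM) the lowest. Per length it averaged 36.1 ± 17.1 CPM per kilobase (SD, n = 10) over the canonical transcript, and 15.5 CPM per kilobase over all annotated exons. Its slope on Mt2 was 0.121 ± 0.0689 (adjusted p = 0.398, edgeR's quasi-likelihood test). Its closest partner among the 7 genes was Mtf1, with r = 0.822 (rho 0.867, n = 10) and 0.706 on deviations from the tag family means.

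In the wider families, 13 of 14 zinc importers (Slc39) and 6 of 10 zinc exporters (Slc30) passed the filter. None was called against Mt2 by edgeR, and at an unadjusted p under 0.05 the importers had 3 positive and 2 negative slopes (1 of each without tumour 5) and the exporters 1 positive slope. That is 23.1% up and 15.4% down for the importers and 16.7% up for the exporters, beside 9.58% up and 7.2% down of all genes, and with the tag family as a term it was 1 importer each way and no exporter. The median slope was 0.0791 for the importers, 0.00643 for the exporters and 0.000814 over all genes tested, and the importer median was 0.00363 without tumour 13 and 0.0106 without tumour 6. Per length the most abundant exporter was Slc30a9, at 9.77 CPM per kilobase, followed by Slc30a5 of the secretory pathway at 7.90 and Slc30a1 at 5.64. Among importers Slc39a4 was followed by Slc39a5, the ZIP5 importer, at 56.7 CPM per kilobase, with 9.90 CPM in tumour 11 and 266 CPM in tumour 10, and by Slc39a14. Slc39a5 had a slope of 0.478 on Mt2, at an adjusted p of 0.188 by edgeR's quasi-likelihood test and 0.03 by DESeq2. Slc39a8, the ZIP8 importer and nearest relative of Slc39a14, had a slope of -0.176 (adjusted p = 0.163 by edgeR's quasi-likelihood test and 0.0445 by DESeq2). Slc30a8, the exporter of insulin granules, was at 0 in all 10 tumours. Of the iron and copper genes 22 of 23 were tested and none was called by edgeR, with a median slope of 0.0278 (-0.0032 without tumour 13 and 0.00323 without tumour 11), and the most abundant per length was Ftl1, a ferritin subunit.

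**Figure D3:**
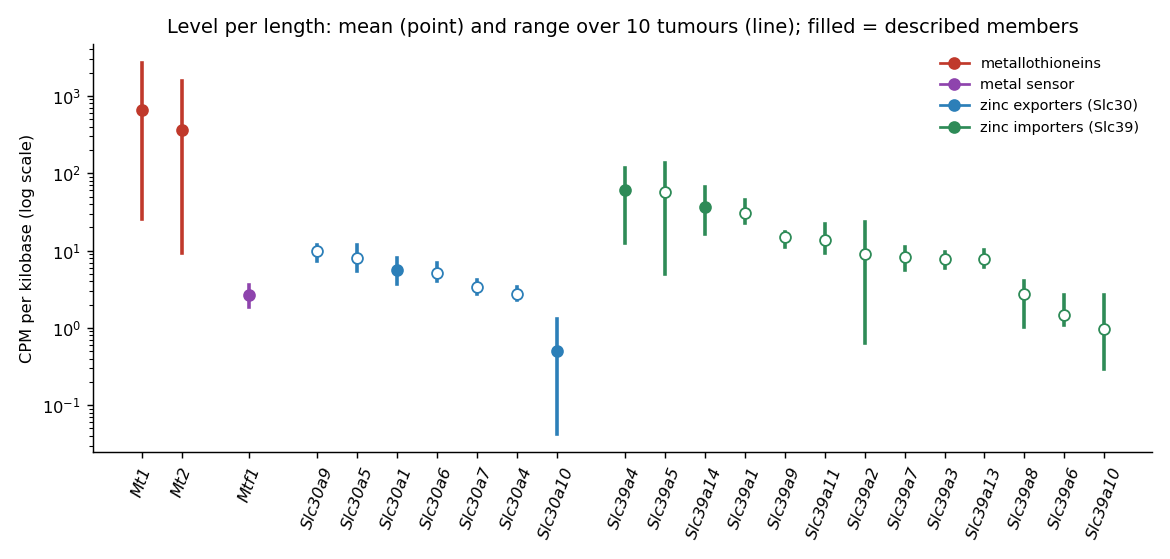
CPM per kilobase of canonical transcript (log scale) for metallothioneins, Mtf1, zinc exporters and zinc importers that passed the filter on low counts, and for Slc30a10, which did not; points are means and lines the range over 10 tumours, filled for the 7 genes described. Mt1 and Mt2 average 649 and 364 CPM per kilobase, Slc39a4 60.1 is the highest importer, and Slc30a10 stands at 0.505.

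The lists of hypoxia genes and of ATF4 and the unfolded protein response held 3 of the 11 genes called with a positive slope on Mt2. The zinc transporter families held none, and 0.0883% of all genes were called upward. Derl3 was called too and is in neither list. Of 10 tested hypoxia genes, 9 had a positive slope at an unadjusted p under 0.05 (90%, beside 9.58% of all genes) and 2 were called, Bnip3 and Slc2a1, with a median slope of 0.324. Ankrd37 (0.488 ± 0.0854, adjusted p = 0.0736) and Pdk1 (0.212 ± 0.046, adjusted p = 0.0943, edgeR's quasi-likelihood test for both) followed. Of 14 genes of ATF4 and the unfolded protein response, 11 had a positive slope at an unadjusted p under 0.05 (78.6%) and Chac1 was called, with a median of 0.237. Ddit3, which encodes CHOP, had a slope of 0.436 and Creld2, an endoplasmic reticulum stress gene, one of 0.403, and neither was called. With the tag family as a term, 4 of the 10 and 6 of the 14 had an unadjusted p under 0.05 (2.82% of all genes upward), and without tumours 5 and 13, 3 and 7 did (3.37%). When each tumour was left out in turn, the counts ran from 6 to 9 and from 8 to 12. Tumour 5 was the highest for all the hypoxia genes named here and for Chac1, Ddit3 and Creld2, and without it 6 of 10 and 8 of 14 had an unadjusted p under 0.05, with no gene of either list called. With the non-polyadenylated RNA as a term, 7 of the 10 hypoxia genes (median slope 0.258) and 11 of the 14 (median 0.202) had a positive slope at an unadjusted p under 0.05, beside 7.14% of all genes. The part of other cells and blood in these slopes was not tested.

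Acute phase genes, which the liver makes in inflammation, had 9 of 18 tested at an unadjusted p under 0.05 with a positive slope on Mt2 and none called by edgeR, with a median of 0.29. Of all genes, 9.58% had a positive and 7.2% a negative slope at that p, and 2.82% and 2.7% with the tag family as a term. The acute phase count was 0 with the tag family as a term (median 0.0515) and 0 with the non-polyadenylated RNA as a term (median 0.13), and the median was 0.156 without tumour 6. Without tumours 5 and 13 the acute phase count was 8 of 18 (median 0.418), beside 3.37% of all genes upward. Glucocorticoid and fasting genes had 7 positive and 1 negative of 18, 2 positive without tumour 5, 2 positive with the tag family as a term, and none positive without tumours 5 and 13. The genes with the smallest p were Per1, Klf9, G6pc1 and Ddit4, of which G6pc1, the last enzyme of glucose release, had the negative slope (-0.314). Beta-catenin targets went the other way, with 5 of 14 negative and none positive (median -0.0762, and 2 negative without tumour 5, 2 without tumour 6 and 3 without tumour 11). With the tag family as a term 1 was negative (median -0.0437). They included Znrf3 and Rnf43, which clear Wnt receptors. NRF2 genes had 1 of 14 (median -0.0192), heat shock genes 3 of 9 (median -0.0218, 1 without tumour 6 and none with the tag family as a term) and clock genes 2 of 14 (median 0.0122), all positive. The NRF2 and clock counts lay near the share of all genes, and were 3 for NRF2 without tumour 13 and 4 positive and 1 negative for clock genes without tumour 10. Of the marker lists, hepatocyte genes had 2 of 9 negative, macrophage genes 1 of 4 positive, and endothelial, stellate, cholangiocyte and blood genes had none, nor had the periportal and proliferation lists or the 2 non-polyadenylated RNAs tested. Some of these counts moved when 1 tumour was left out: without tumour 11, 5 of 14 proliferation genes were negative, without tumour 7, 2 of 7 endothelial genes and both non-polyadenylated RNAs were positive, and without tumour 5 no hepatocyte gene was negative and 2 of 6 macrophage genes were positive. Lymphocyte and neutrophil markers summed to 0.764 to 5.42 and 1.68 to 33.7 CPM, with no gene past the filter. In a fit on every gene with at least 1 count, 3 of 7 neutrophil markers had a positive slope on Mt2 at an unadjusted p under 0.05 and none was called (median 0.317), beside 7.19% of the 24681 genes, and of 8 lymphocyte markers 1 had a negative slope. The part of neutrophils in the slopes on Mt2 was not tested.

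**Figure D4:**
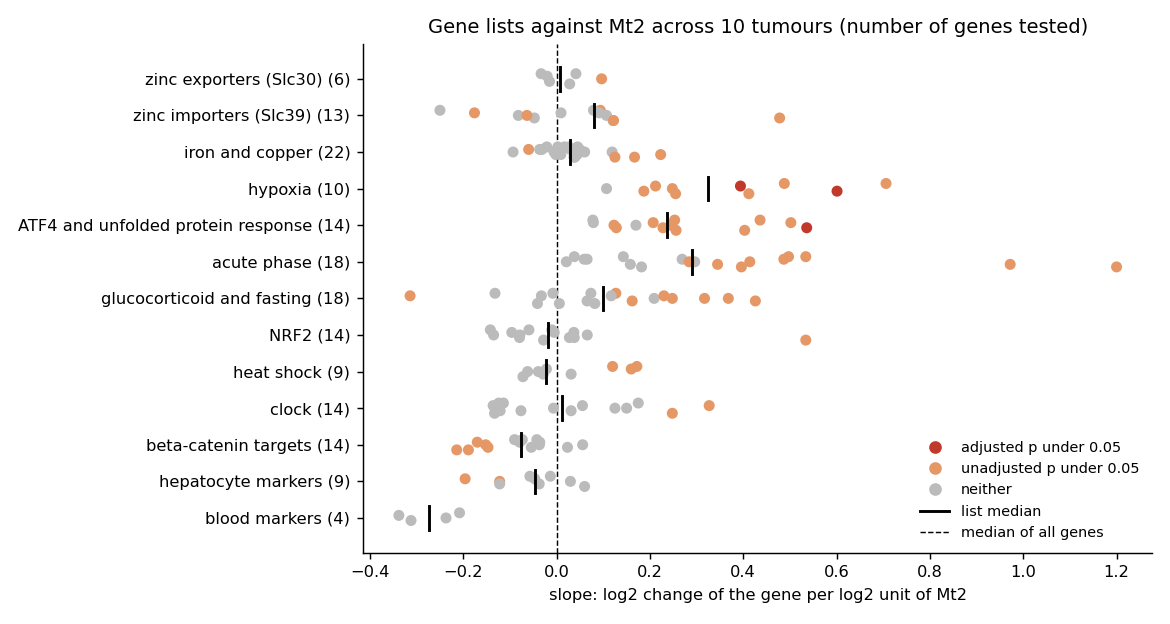
Slope of each listed gene on Mt2 (horizontal, log2 change per log2 unit of Mt2) over 10 tumours, by list; the short black line is the list's median, the dashed line the median of all genes, and the colour gives the test. Hypoxia (median 0.324), acute phase (0.29) and ATF4 and unfolded protein response genes (0.237) lie to the right, while the zinc exporters (0.00643) sit on the median of all genes (0.000814).

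The same fit on Slc39a14 called none of 12461 genes by edgeR (0%), with 1337 at an unadjusted p under 0.05 (10.7%, 6.47% up and 4.26% down), and DESeq2 called 146 (1.17%). Acute phase genes had 13 of 18 at an unadjusted p under 0.05, all positive (72.2%, beside 6.47% of all genes upward), with a median slope of 1.19 beside 0.00146 for all genes. Lcn2, an iron-trapping protein of inflammation, had a slope of 2.36 ± 0.461, Itih4 one of 0.965 ± 0.204 and Serpina3n one of 1.73 ± 0.396 (adjusted p 0.181, 0.195 and 0.208 by edgeR's quasi-likelihood test). With the tag family as a term 11 of the 18 had an unadjusted p under 0.05, with the non-polyadenylated RNA as a term 9 did, and with the 2 most extreme tumours for Slc39a14 left out, 7 of 19 did. Without tumour 6, the highest for Slc39a14, 6 did. Genes of ATF4 and the unfolded protein response had 10 of 14, 5 of 14 without tumour 5 and 2 of 14 with the tag family as a term. With the 2 most extreme tumours for Slc39a14 left out they had 9 of 14, beside 3.31% of all genes upward. Hypoxia genes had 4 of 10 positive (2 without tumour 5) and beta-catenin targets 4 of 14 negative (beside 4.26% of all genes), and with the tag family as a term neither list had any. With the 2 most extreme tumours left out, hypoxia genes had 5 of 10 positive and beta-catenin targets 0 of 14 negative. Blood genes had 3 of 4 with a negative slope at an unadjusted p under 0.05, 1 without tumour 5 and 0 without tumour 7, where they were the highest. Without tumour 9 edgeR called 1 gene against Slc39a14.

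On Mtf1 edgeR called none of 12461 genes (0%), with 1746 at an unadjusted p under 0.05 (14%, 8.76% up and 5.25% down), and DESeq2 called 259 (2.08%). Per log2 unit of Mtf1, Mt1 had a slope of 5.24 ± 1.36, Mt2 one of 5.25 ± 1.55 and Slc39a14 one of 1.88 ± 0.409 (SE, adjusted p 0.176, 0.195 and 0.143 by edgeR's quasi-likelihood test). DESeq2 called Mt1 (adjusted p = 0.034) and Slc39a14 (0.00528), and not Mt2 (0.0534). Slc30a1, with a slope of 0.441 ± 0.397, and Slc39a4, with 0.304 ± 1.03, were not called by either tool. Acute phase genes had 13 of 18 and genes of ATF4 and the unfolded protein response 11 of 14 at an unadjusted p under 0.05, all positive, and all 4 blood genes tested had a negative slope at that p. With the tag family as a term these counts were 1, 3 and 0, beside 2.95% of all genes up and 1.96% down. Without tumour 6 the acute phase count was 7, without tumour 5 that of the unfolded protein response was 6, and without tumour 7 that of blood was 0. With the 2 most extreme tumours for Mtf1 left out, the 3 counts were 14 of 19, 7 of 14 and 0 (2.35% of all genes up). With the non-polyadenylated RNA as a term they were 10 of 18, 10 of 14 and 1 of 4 (8.13% of all genes up). Beta-catenin targets had 7 of 14 negative (50%, beside 5.25% of all genes), 2 with the tag family as a term, 4 without tumour 6 and 3 without tumour 7. Hypoxia genes had 5 of 10 positive, none with the tag family as a term and 1 without tumour 5. Leaving out tumour 11 gave 1 call over all genes and leaving out tumour 12 gave 21. The fits on Mt2, Slc39a14 and Mtf1 use the same 10 libraries.

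The genes whose log2 CPM resembled Mt2 most were Mt1 (r = 0.994), Rab2a (0.933), Cpne8 (0.926), Ddx19a (0.926), Chac1 (0.925), Tle3 (0.925), Pcid2 (0.921) and Psme3ip1 (0.919), each over 10 tumours. Between the lowest and the highest tumour, Rab2a spanned 1.48-fold, Psme3ip1 1.69-fold, Ddx19a 2.08-fold and Pcid2 2.14-fold. Cpne8 spanned 4.64-fold, Tle3 13.6-fold, Chac1 32.8-fold and Mt1 105-fold. The most opposite were Tatdn3 (r = -0.951), Btrc (-0.947), Dnajc15 (-0.946) and Ppp1r9a (-0.945). Of the 8 most alike, Mt1, Ddx19a, Pcid2 and Psme3ip1 lie on chromosome 8 with Mt2.

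Genes of chromosome 8 had a positive slope on Mt2 more often than genes at large. Of 671 tested there, 22.7% had a positive slope on Mt2 at an unadjusted p under 0.05 and 0.596% a negative one, beside 9.58% and 7.2% of all genes, and chromosomes 5 (20%) and 4 (17.6%) came next, while chromosomes 1 and 11 had 16.9% negative each. The median deviation of chromosome 8 genes from the other tumours was lowest in tumours 13 and 7 (-0.23 on the log2 scale in both), followed by tumour 11 (-0.14), and highest in tumour 5 (0.15). Its Pearson's r with Mt2 was 0.783 (rho 0.697, n = 10), and chromosomes without Mt2 had values of similar size, with 0.714 for chromosome 5 (rho 0.745), 0.714 for chromosome 18 (rho 0.697) and -0.716 for chromosome 11 (rho -0.77). The shift spanned 0.38 log2 units, beside 7.38 for Mt2 and 6.71 for Mt1. Mtf1 lies on chromosome 4, whose median deviation spanned 0.32 beside 0.94 for Mtf1, with r = 0.846 (rho 0.758). Slc39a4 lies on chromosome 15, whose median deviation spanned 0.60 beside 3.21 for Slc39a4, with r = 0.709 (rho 0.721). For Slc30a1 on chromosome 1 and Slc39a14 on chromosome 14 these r were 0.442 and 0.472, and for Slc30a10 on chromosome 1 it was -0.358. DNA copy number was not measured, and its part in these levels was not tested.

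**Figure D5:**
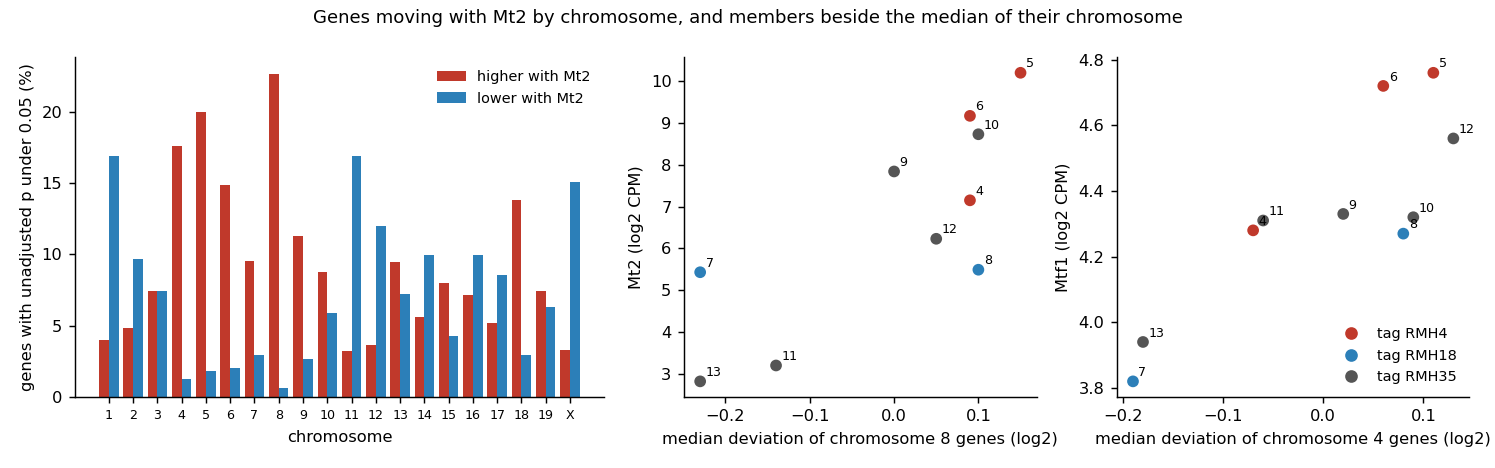
Left, share of tested genes on each chromosome with an unadjusted p under 0.05 against Mt2, by direction of the slope. Middle and right, log2 CPM of Mt2 and Mtf1 in each of 10 tumours against the median log2 deviation of genes on their own chromosome (8 and 4), with tumour numbers. Chromosome 8 has the highest positive share (22.7%), and its median deviation runs from -0.23 in tumours 7 and 13 to 0.15 in tumour 5.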

How the data were processed

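The authors deposited 1 table of raw counts per Ensembl gene, made per the labels with TopHat2, HTSeq and build GRCm38 from stranded mRNA libraries (versions and strand setting not given in the sources used here); the methods of the study name other tools. Between 45.4% and 57.9% of each library's reads or pairs were listed as aligned to more than 1 place and stay out of the counts. Columns were matched to tumours by number, and 9 of 19 columns were not used. Members and lists were chosen with earlier results of these data known. Symbols came from GENCODE M39 (87.3% of 39179 genes), positions and promoters from RefSeq GRCm38.p6. Counts were scaled by TMM (edgeR 4.0.16) to CPM, with a prior count of 2 for log2 CPM, and genes were kept by filterByExpr. Each gene was fitted on log2 CPM of Mt2, Slc39a14 or Mtf1 with glmQLFTest, with Benjamini-Hochberg adjustment. DESeq2 1.42.0 and other settings were alternatives. Counts were simulated for the Mt2 fit over the 12462 genes that passed the filter (Mt2 itself included, which the fit leaves out). Tumours were drawn independently, with no effect of tags. Recovered were 43 of 50 genes with slope 0.4, 19 of 50 with 0.2, 18 of 50 with -0.2 and 49 of 50 with -0.4, with 5 false calls. Named genes were the 7 members, metal genes that passed the Mt2 test or were the most abundant per length in their family, the 8 highest and 4 lowest r with Mt2, up to 4 per other list by p, and neighbours within 200 kb (an item of this rule is not reported here). Sister genes shown for context (the other metallothioneins, Slc39a5, Slc39a8, Slc30a5 and Slc30a8), the called genes and Tfr2 were named after their values were seen.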

Additional observations from a re-analysis of the deposited data

How the results depend on the processing

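The count of genes called against Mt2, 12 in the fit reported, was 12 with DESeq2 size factors in edgeR, 10 with every gene that had at least 1 count and 12 with a prior count of 0.5. It was 503 with the DESeq2 test, 19 with ranks of Mt2, 2 without tumours 5 and 13, 1 with the tag family as a term and 1 with the non-polyadenylated RNA as a term, and from 1 to 120 when each tumour was left out. Mt1 was called in all 18. The count for Slc39a14, 0, was 146 with DESeq2, 1 with the non-polyadenylated RNA as a term and from 0 to 1 when each tumour was left out (1 without tumour 9). The count for Mtf1, 0, was 259 with DESeq2 and from 0 to 21 when each tumour was left out (1 without tumour 11 and 21 without tumour 12). Why these counts moved was not tested. All 182 alternative means and SDs of the 7 genes moved by less than 1 SD between tumours. Most of them left out 1 of 10 tumours, which cannot move a mean or an SD that far, so this outcome was mostly fixed in advance. The SD of log2 CPM of Slc39a4 fell from 0.921 to 0.619 without tumour 13. No gap at an end of the 10 values passed Dixon's limit for any of the 7 genes. Of 7 levels per length, 1 moved by more than 1 SD with the summed length of all exons, that of Slc39a14 (15.5 against 36.1 CPM per kilobase); this alternative was chosen after seeing the data. No paired analysis was possible because the tumours form 1 group and no other group had usable columns. In counts simulated for 10 independent tumours, slopes near 0.2 were often missed. The 5 tags were not part of that simulation, so it does not show what is missed or falsely called if tumours under a tag are alike. Depth limits Slc30a10, Mt3 and Mt4.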
